A study of Homo sapiens with 23 samples.

Results

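Aminoacyl-tRNA synthetases are the enzymes that load each amino acid onto its tRNA, and their genes were examined in human embryonal carcinoma cells in which SVA retrotransposons were repressed. Members were chosen by symbol: 1 amino acid letter, or EP, followed by ARS, ARS1 or ARS2, together with FARSA and FARSB. This gave 37 genes out of 36085 genes with a transcript in the RNA files, of which 18 encode cytosolic enzymes, 17 encode mitochondrial enzymes and 2, GARS1 and KARS1, encode both forms. All 37 passed the filter on low counts, so no member was lost before testing.

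The cells were SCi-NCCITs, that is NCCIT cells, an embryonal carcinoma line with pluripotent character, carrying a doxycycline-inducible dCas9-KRAB repressor and a pair of guide RNAs against SVAs on piggyBac transposons. The guides match a sequence that SVAs share with another repeat family, LTR5Hs, so they also target LTR5Hs copies, whose positions were not analysed here. One group of 3 RNA libraries came from cells given 2 µg/mL doxycycline for 72 hours and the other group of 3 from cells given none, and both groups carried the repressor and the guides. H3K9me3, YY1 and OCT4 peak lists came from the same conditions, with 2, 2 and 1 libraries per condition, and 1 further H3K9me3 list came from parental NCCITs without the repressor. No library came from doxycycline-treated cells that lacked the repressor or the guides, so effects of doxycycline itself, of SVA repression and of LTR5Hs repression cannot be told apart. The cells derive from stable clones isolated after transfection of the repressor. Nothing in the labels says that the libraries came from separate cultures, so p-values measure only the spread between these libraries.

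The cytosolic enzymes charge tRNAs for the ribosomes of the cytosol, and several of them, with 3 scaffold proteins, form the multisynthetase complex. The mitochondrial enzymes are encoded in the nucleus, are imported, and charge the tRNAs of the mitochondrial genome. Many cytosolic synthetase genes are known targets of ATF4, the transcription factor of the amino acid response, which binds the C/EBP-ATF response element in their promoters.

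The libraries held between 14683468 and 47862394 estimated counts on annotated genes, the shallowest being untreated replicate 1. ZNF10, the gene that supplies the KRAB domain most often used in such repressors, was measured at 10.0, 11.8 and 10.7 CPM (counts scaled to the size of the library) without doxycycline and at 362, 374 and 459 CPM with it, and reads of the endogenous gene and of a transgene cannot be told apart. The pluripotency markers POU5F1, SOX2 and LIN28A were detected in all libraries, and the summed CPM of 8 such markers was 2677 to 2922 without and 2201 to 2439 with doxycycline. Of these 8, TDGF1 (log2 fold change -1.13), DNMT3B (-0.60), NANOG (-0.57) and ZFP42 (-0.40) fell, and POU5F1 was not called. The 4 falls were 50% of the list, against 8.48% of all tested genes called lower. The summed CPM of 12 differentiation markers was 578 to 588 without and 672 to 821 with doxycycline, with TBXT, SOX17 and SOX1 too low to be tested and GATA6 (1.46), MIXL1 (0.55) and NES (0.47) higher. The 3 rises were 33.3% of the 9 tested markers, against 8.97% of all tested genes called higher. GATA6 was called in all 13 alternative fits, NES in 12 and MIXL1 in 7. The part of these marker shifts in the synthetase results was not tested. In bulk RNA, fewer cells of a type and less RNA per cell cannot be told apart.

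The levels of the valyl and histidyl genes need care. VARS1 and VARS2 lie in the MHC region of chromosome 6, where the 4 YY1 lists held 0 to 2 peaks in 2 Mb around VARS1, against a chromosome mean of 40.5 to 89.0 per 2 Mb, so their levels and their lack of peaks are uncertain. HARS1 and HARS2 are related genes that start 85 bp apart in opposite directions. HARS1 was measured at 22.8, 56.3 and 59.0 CPM without and 30.7, 71.2 and 55.5 CPM with doxycycline, which placed replicate 1 low in both conditions.

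Of the motifs searched, a pair is shown, picked because their matches fell mostly in different classes of member. A match to the C/EBP-ATF response element, searched as TGATGNAA on both strands from 250 bases before to 50 bases after the start site, was present in 6 of 18 cytosolic genes, in GARS1 and in 1 of 17 mitochondrial genes, against 2.12% of 16358 promoters of tested genes. A match to the YY1 motif, searched as AANATGGC in the same way, was present in 7 of 17 mitochondrial genes, 2 of 18 cytosolic genes and KARS1, against 9.27% of all promoters. No match of the response element overlapped a match of the YY1 motif. An NRF1 motif (GCGCANGC) and the E-box (CACGTG) were searched too and are not shown. The NRF1 motif was present in 4 of 18 cytosolic genes, 6 of 17 mitochondrial genes and KARS1, against 18.6% of all promoters. The E-box was present in 2 of 18 cytosolic and 2 of 17 mitochondrial genes, against 9.11%. The windows below have 30 bases of the GRCh37 reference, 5′ to 3′ on the strand of the gene, with the motif in capitals. These are matches of letters, not measured binding.
AARS1: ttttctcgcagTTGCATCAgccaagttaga
CARS1: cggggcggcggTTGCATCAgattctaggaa
IARS1: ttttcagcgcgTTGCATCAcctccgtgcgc
MARS1: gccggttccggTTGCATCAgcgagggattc
NARS1: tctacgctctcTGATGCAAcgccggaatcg
YARS1: ccgagcccagcTGATGCAAcctggctggac
GARS1: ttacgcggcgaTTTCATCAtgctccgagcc
LARS2: gctgttttgacAACATGGCggcgcccatgg
WARS2: ccgcccttctcAAGATGGCgctgcactcaa
YARS2: gtgccgctaccAAGATGGCggcgcccatct
KARS1: ggccctccgggAAGATGGCggccgtgcagg
FARSA: tagacacattcAAGATGGCggtacacactc

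The first 7 of these windows carry the response element and the last 5 the YY1 motif. They lie at chr16:70323578-70323607 (AARS1, minus strand), chr11:3078637-3078666 (CARS1, minus), chr9:95055974-95056003 (IARS1, minus), chr12:57881836-57881865 (MARS1, plus), chr18:55289036-55289065 (NARS1, minus), chr1:33282938-33282967 (YARS1, minus) and chr7:30634450-30634479 (GARS1, plus). The YY1 windows lie at chr3:45430068-45430097 (LARS2, plus), chr1:119683252-119683281 (WARS2, minus), chr12:32908793-32908822 (YARS2, minus), chr16:75681522-75681551 (KARS1, minus) and chr19:13044584-13044613 (FARSA, minus). In CARS1, IARS1, MARS1 and YARS1 the response element began at -7, -10, -4 and 4 from the start site, and in AARS1 it began at -187. In the YY1 windows of LARS2, WARS2, YARS2 and KARS1 the motif began 7 to 24 bases after the start site, and in FARSA at -77.

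The first comparison asked how the cytosolic genes moved with doxycycline. Of the 18, 8 fell and 0 rose (edgeR quasi-likelihood test, Benjamini-Hochberg adjusted p under 0.05 over 16371 genes), against 8.48% of all tested genes called lower and 8.97% called higher. The 8 genes were 44.4% of the class. In the other direction 1 gene, FARSA, had an unadjusted p under 0.05, and DESeq2 called it. The median log2 fold change of the 18 genes was -0.15, against -0.00252 over all tested genes. The CPM of every treated library lay below every untreated library in 10 of the 18 genes and above in 2, against 17.8% and 19.2% of all tested genes.

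**Figure D1:**
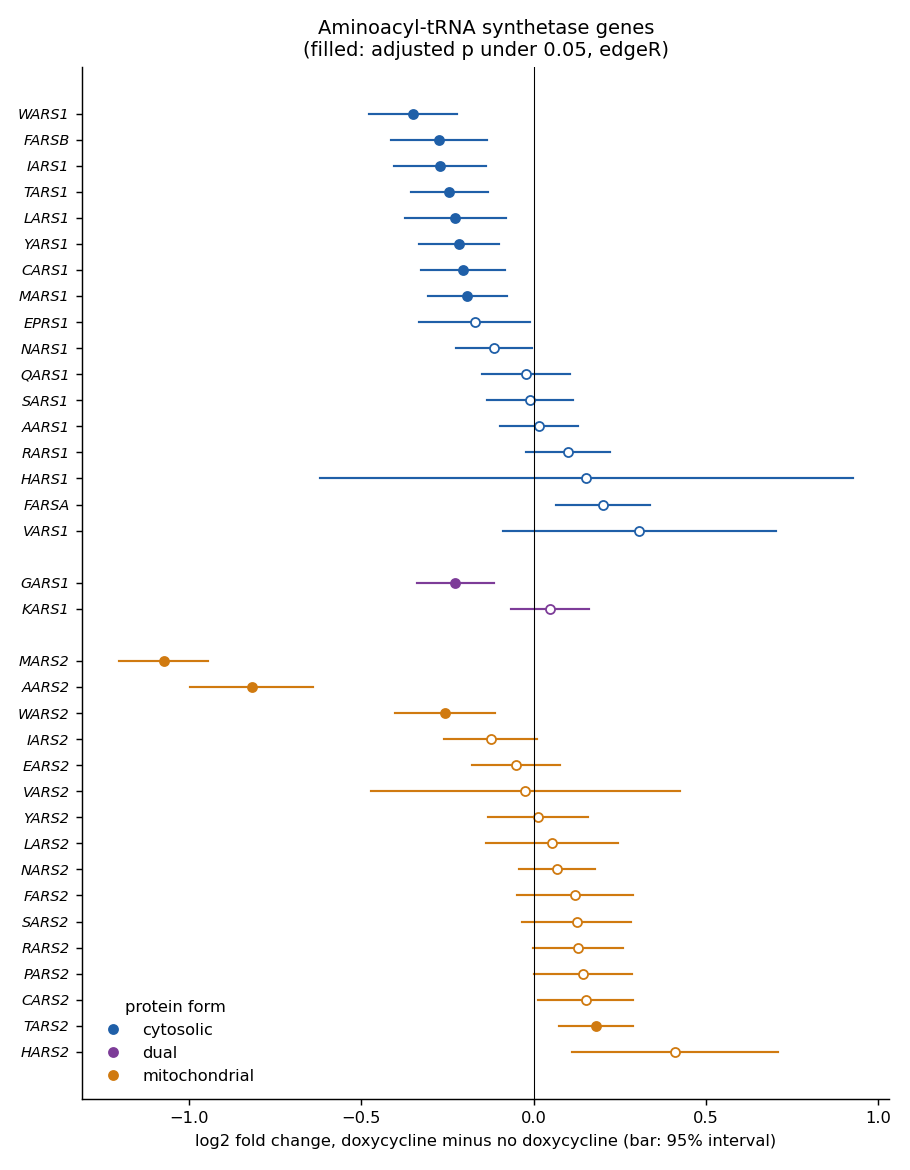
Log2 fold change of 35 of the 37 synthetase genes, doxycycline minus no doxycycline, with 95% intervals, grouped by the form of the protein, with filled points for an adjusted p under 0.05. The cytosolic genes ran from -0.35 (WARS1) to 0.31 (VARS1), and MARS2 and AARS2 lay apart from the other mitochondrial genes at -1.07 and -0.82.

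WARS1, the tryptophanyl-tRNA synthetase, was measured at 297, 277 and 270 CPM without and 213, 223 and 225 CPM with doxycycline. The groups did not overlap, and the log2 fold change of -0.35 (SE 0.06, adjusted p = 0.00351) was the largest fall in the class. TARS1, the threonyl enzyme, was at 419, 421 and 411 CPM without and 362, 351 and 342 CPM with doxycycline (-0.24, SE 0.05, adjusted p = 0.00999). These 2 were the only cytosolic genes called in the fit reported here and in each of the 13 alternative fits.

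FARSB, the beta subunit of phenylalanyl-tRNA synthetase, was at 130, 140 and 135 CPM without and 105, 119 and 112 CPM with doxycycline (-0.27, SE 0.06, adjusted p = 0.0159). FARSA, the alpha subunit, which holds the catalytic site, was at 70.2, 63.4 and 65.9 CPM without and 80.1, 76.5 and 72.4 CPM with doxycycline. The groups of FARSA did not overlap in the other direction, and its log2 fold change of 0.20 (SE 0.06) had an adjusted p of 0.0505 in edgeR's test and was called in 7 of 13 alternatives. The subunits thus had fold changes of opposite sign, and the difference between them was not tested.

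IARS1 (isoleucine) was at 357, 386 and 376 CPM without and 290, 319 and 319 CPM with doxycycline (-0.27, SE 0.06, adjusted p = 0.0146). LARS1 (leucine) was at 313, 326 and 305 CPM without and 248, 270 and 289 CPM with doxycycline (-0.23, SE 0.07, adjusted p = 0.0409). MARS1 (methionine) was at 524, 499 and 500 CPM without and 455, 448 and 429 CPM with doxycycline (-0.19, SE 0.05, adjusted p = 0.0312). These 3 belong to the multisynthetase complex and had no overlap between the groups in CPM. In TPM, LARS1 was at 134.2, 142.5 and 131.9 without and 98.8, 107.5 and 144.0 with doxycycline, and its groups overlapped. IARS1 was called in 9, LARS1 in 7 and MARS1 in 5 of 13 alternatives.

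YARS1 (tyrosine) was at 642, 625 and 631 CPM without and 567, 543 and 523 CPM with doxycycline (-0.22, SE 0.05, adjusted p = 0.0205). CARS1 (cysteine) was at 136, 132 and 140 CPM without and 122, 113 and 119 CPM with doxycycline (-0.20, SE 0.05, adjusted p = 0.0317). In both genes every treated library lay below every untreated one. These calls lay near the threshold: the count of 8 became 2 without untreated replicate 2 or without untreated replicate 3, 4 without treated replicate 1 or treated replicate 2, 5 without treated replicate 3, and 4 with length-scaled counts. The YARS1 call was also lost with protein-coding transcripts only (-0.14, adjusted p = 0.134). The count over all genes fell as well, from 1389 to between 713 and 880 without untreated replicate 2, untreated replicate 3 or treated replicate 2.

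Of the cytosolic genes not called, EPRS1, a fused glutamyl and prolyl enzyme, was at 362, 411 and 397 CPM without and 319, 352 and 368 CPM with doxycycline, and the groups overlapped (-0.17, SE 0.07, adjusted p = 0.13). QARS1, the glutaminyl enzyme, was at 303, 290 and 301 CPM without and 296, 308 and 276 CPM with doxycycline (-0.02, SE 0.06, adjusted p = 0.831). The 95% interval of QARS1 ran from -0.15 to 0.11. The log2 fold changes were -0.11 for NARS1, -0.01 for SARS1, 0.02 for AARS1, 0.10 for RARS1, 0.15 for HARS1 and 0.31 for VARS1, none of them called.

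Of the dual genes, GARS1, the glycyl enzyme of both compartments, was at 290, 309 and 299 CPM without and 254, 260 and 254 CPM with doxycycline (-0.23, SE 0.05, adjusted p = 0.0145). Its groups did not overlap, and the adjusted p rose to 0.0649 without untreated replicate 2, 0.0518 without untreated replicate 3 and 0.058 without treated replicate 1. KARS1, the lysyl enzyme, was at 189, 191 and 195 CPM without and 194, 205 and 195 CPM with doxycycline (0.05, SE 0.05, adjusted p = 0.552).

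The C/EBP-ATF element and the calls can be set side by side. Of the 8 members with a match, CARS1, IARS1, MARS1, YARS1 and GARS1 fell, and AARS1, NARS1 and YARS2 were not called. Of all 346 tested genes with a match, 12.1% fell. WARS1, TARS1, FARSB and LARS1 fell without a match in the window, which says only that these letters are not there.

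Members of the complex and enzymes outside it both held falls. Of the 8 synthetases of the multisynthetase complex, 3 fell, with a median log2 fold change of -0.15. Of the 11 cytosolic synthetases outside it, 5 fell, with a median of -0.11. The scaffolds AIMP1 (-0.06), AIMP2 (0.16) and EEF1E1 (-0.05) were not called by edgeR's test, where AIMP2 had an unadjusted p under 0.05, nor by DESeq2. By catalytic fold, with the fused EPRS1 left out, 8 of 18 class I and 4 of 18 class II members fell, and the only rise, TARS2, was in class II. Over all tested genes 8.48% fell and 8.97% rose, and a share over so few genes moves much with 1 gene.

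**Figure D2:**
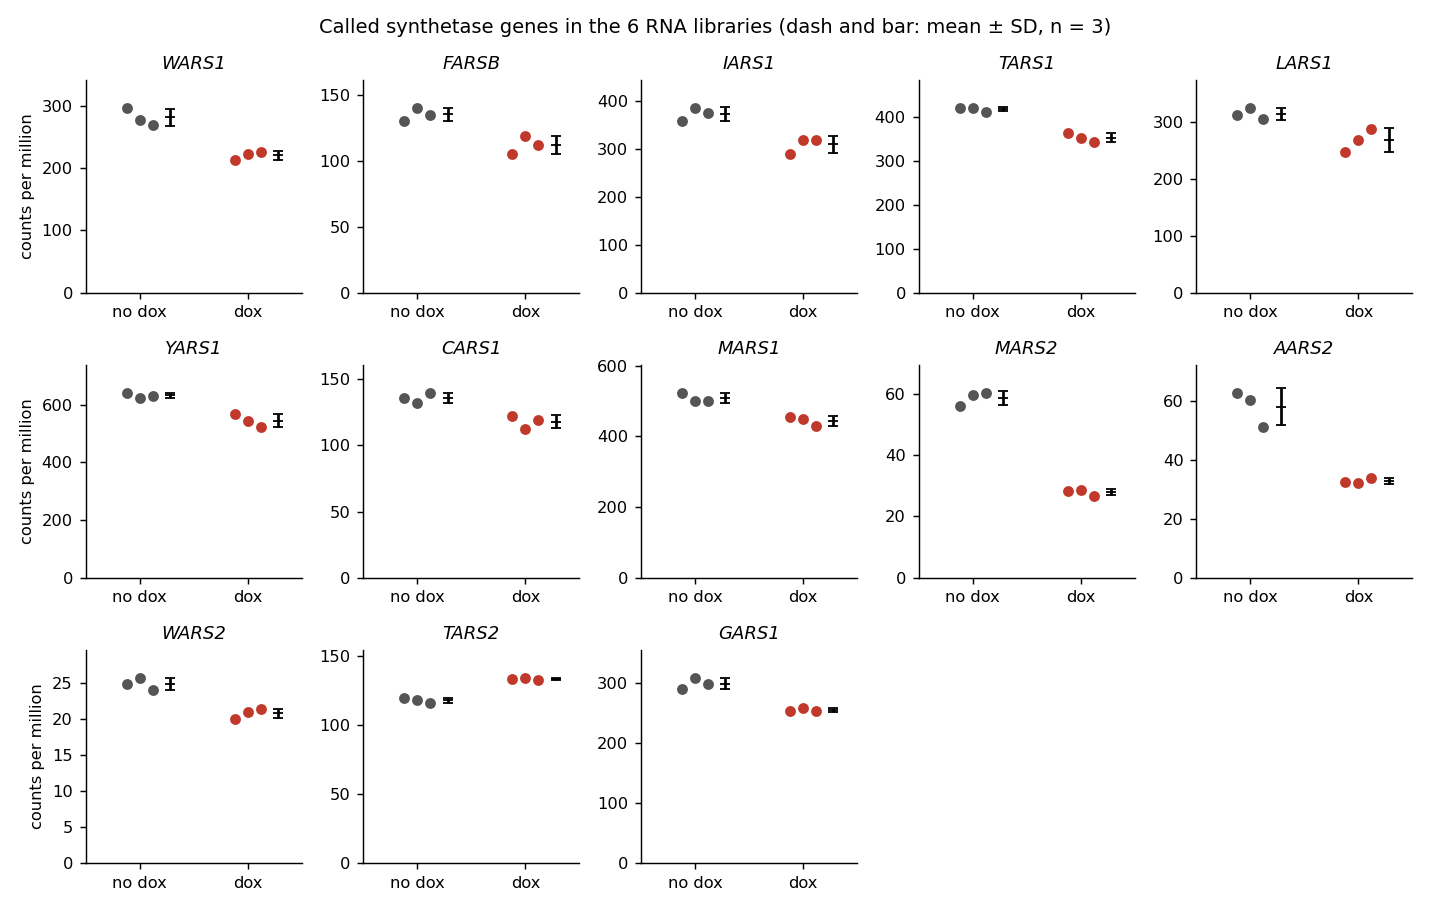
CPM of the 13 called synthetase genes in each RNA library (points), with the mean ± SD of 3 libraries beside them, without and with doxycycline, on axes that start at 0. MARS2 fell from 58.5 to 27.8 CPM and AARS2 from 58.2 to 32.8 CPM on average, and WARS1 from 281 to 220 CPM.

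The second comparison asked the same of the mitochondrial genes. Of the 17, 3 fell, 17.6% of the class against 8.48% of all tested genes, and 1 rose, 5.88% against 8.97%. The median log2 fold change of the class was 0.05, and -0.01 with protein-coding transcripts only. The CPM of the treated libraries lay below all untreated libraries in 4 of the 17 genes and above in 7, against 17.8% and 19.2% of all tested genes. The count below is near the share over all genes.

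MARS2 encodes the mitochondrial methionyl-tRNA synthetase, which charges the methionine tRNA of mitochondria. It was measured at 55.9, 59.4 and 60.3 CPM without and 28.3, 28.5 and 26.8 CPM with doxycycline. The treated libraries were all below the untreated ones, and the level fell by 52.5% (log2 fold change -1.07, SE 0.06, 95% interval -1.20 to -0.95, adjusted p = 5.03e-06). Over the 13 alternatives the log2 fold change stayed between -1.11 and -1.04 (adjusted p 3.52e-43 to 0.000173). All its signal was on 1 transcript in the files, coding for 593 residues. In the annotation used a same-strand long non-coding RNA overlaps MARS2, and it was not in the transcript index of the files, so its reads could not be told apart from those of MARS2.

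AARS2 encodes the mitochondrial alanyl-tRNA synthetase. It was at 62.9, 60.6 and 51.1 CPM without and 32.5, 32.1 and 33.9 CPM with doxycycline. The groups did not overlap, and the level fell by 43.3% (log2 fold change -0.82, SE 0.08, 95% interval -0.998 to -0.64, adjusted p = 0.000202). The alternatives ranged from -0.91 to -0.76 (adjusted p 2.24e-17 to 0.00311). At least 98.2% of the TPM of the gene was on the transcript coding for 985 residues in every library.

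WARS2, the mitochondrial tryptophanyl enzyme, was at 24.8, 25.7 and 23.9 CPM without and 20.04, 20.9 and 21.3 CPM with doxycycline (-0.26, SE 0.06, adjusted p = 0.0249). The groups did not overlap, and the adjusted p was 0.0993 without untreated replicate 2, 0.0928 without treated replicate 1, 0.0824 without treated replicate 2 and 0.0689 with length-scaled counts. TARS2, the threonyl enzyme, was at 119, 118 and 116 CPM without and 133, 134 and 132 CPM with doxycycline (0.18, SE 0.05, adjusted p = 0.0309). Its call was lost with length-scaled counts (adjusted p = 0.215) and when any library other than untreated replicate 1 was left out (adjusted p 0.0607 to 0.108).

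HARS2 was at 25.7, 39.7 and 39.8 CPM without and 46.9, 47.4 and 47.8 CPM with doxycycline. Its log2 fold change of 0.41 (SE 0.13) had an adjusted p of 0.0624 in edgeR's test and of 0.0104 to 0.161 over the alternatives, of which 5 of 13 made a call. The remaining log2 fold changes were -0.12 for IARS2, -0.05 for EARS2, -0.02 for VARS2, 0.01 for YARS2, 0.05 for LARS2, 0.07 for NARS2, 0.12 for FARS2, 0.12 for SARS2, 0.13 for RARS2, 0.14 for PARS2 and 0.15 for CARS2. None of these 11 genes was called.

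The third comparison set the cytosolic and the mitochondrial enzyme of each amino acid side by side, in TPM, which is per length and so allows levels of different genes to be compared. The cytosolic genes ran from 6.79 TPM (VARS1) to 560 TPM (SARS1) without doxycycline, with a median of 127 TPM. The mitochondrial genes ran from 6.05 TPM (VARS2) to 73.9 TPM, with a median of 23.2 TPM. In 15 of 18 pairs, with EPRS1 used for glutamate and proline and FARS2 set against both subunits, the cytosolic level was above the mitochondrial one in every library. The exceptions were HARS1 with HARS2, VARS1 with VARS2, and FARSB with FARS2. These TPM are sums over all transcripts of a gene, including those not annotated as protein-coding. Without doxycycline, protein-coding transcripts held 50.7% of the IARS1 TPM and 98.3% of the IARS2 TPM. The order of these 2 genes thus need not hold on coding transcripts alone, where pairs were not compared. The share was also low for YARS1 (50.4%), TARS1 (53.2%), WARS1 (56.4%), SARS2 (63.9%) and LARS2 (64.3%).

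**Figure D3:**
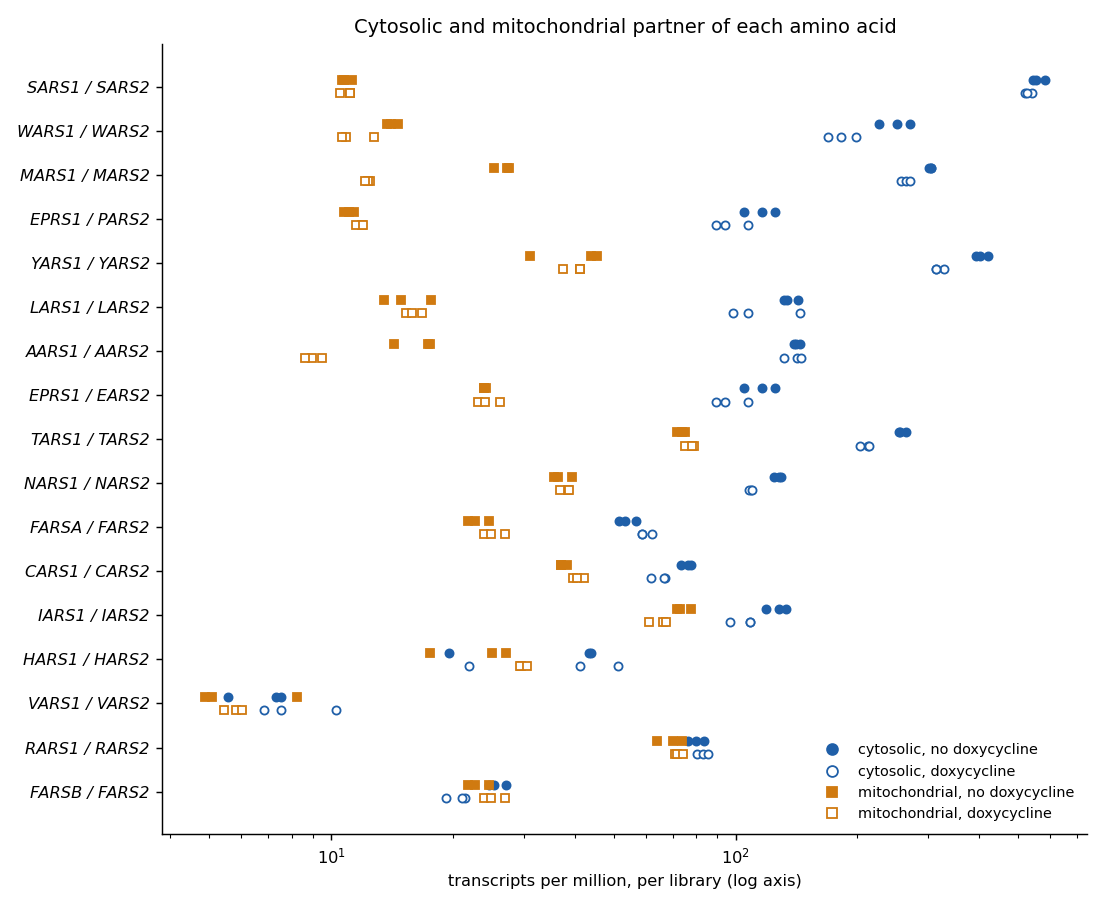
TPM of the cytosolic (circles) and mitochondrial (squares) gene of 17 of the 18 pairs in each library, on a log axis, filled without and open with doxycycline, ordered by the ratio without doxycycline. The ratio ran from 51.6 for SARS1 and SARS2 to 1.12 for FARSB and FARS2, and the open squares of MARS2 and AARS2 lie to the left of the filled ones.

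The ratio of AARS1 to AARS2 rose from 8.69 ± 0.90 to 15.5 ± 0.38 (SD, n = 3), with no overlap between the groups and AARS1 itself at a log2 fold change of 0.02. The ratio of MARS1 to MARS2 went from 11.4 ± 0.59 to 21.4 ± 0.83, although MARS1 fell too. These ratios are descriptions, since 3 libraries against 3 cannot go below p = 0.10 in an exact permutation test. Of the 18 pairs, these 2 were the ones whose ratio was higher with doxycycline without overlap, and 7 had a lower ratio without overlap. No such share was computed for other gene pairs, and EPRS1 and FARS2 are reused across pairs, so the counts have no baseline. Among those 7, the ratio of TARS1 to TARS2 went from 3.50 ± 0.06 to 2.72 ± 0.02 and that of CARS1 to CARS2 from 2.02 ± 0.07 to 1.60 ± 0.04, again without overlap. The ratio of WARS1 to WARS2 was 17.6 ± 1.39 without and 16.0 ± 0.89 with doxycycline, and its groups overlapped.

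Summed over the 18 genes, the cytosolic level was 2981, 3027 and 2948 TPM without and 2565, 2602 and 2683 TPM with doxycycline. The mitochondrial sum was 497, 542 and 519 TPM without and 499, 502 and 513 TPM with doxycycline. The cytosolic sums did not overlap between conditions and the mitochondrial sums did. Both sums include transcripts not annotated as protein-coding. The ratio of the sums was 5.75 ± 0.22 without and 5.18 ± 0.05 with doxycycline, and 6.01 ± 0.23 and 5.48 ± 0.05 when the valyl and histidyl genes were left out.

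KARS1 makes its cytosolic and mitochondrial proteins from alternative transcripts. The transcript coding for the cytosolic form of 597 residues held 76.5% ± 2.20 of the TPM of the gene without and 74.1% ± 1.64 with doxycycline (SD, n = 3). The transcript coding for the mitochondrial form of 625 residues held 8.70%, 8.97% and 7.40% without and 9.05%, 9.09% and 12.03% with doxycycline. The treated libraries lay above the untreated ones, by as little as 9.05% against 8.97%, and shares of similar transcripts are estimates of the quantification. WARS1 was spread over several transcripts, with 29.7% ± 0.73 without and 30.2% ± 2.86 with doxycycline on the one coding for 430 residues, and the one coding for 471 residues held 22.5% ± 2.09 without and 25.5% ± 2.50 with doxycycline.

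The peak lists were then read at the start site of the most abundant coding transcript of each gene. A YY1 peak lay within 1000 bp in both libraries in 33 of 37 members without doxycycline (89.2%, against 56.6% of 16358 tested genes) and in 34 with it (91.9%, against 64.3%). VARS1 and VARS2 had none in any library. An OCT4 peak, from 1 library per condition, was present at 21 members without doxycycline (56.8%, against 39.4%) and at 1, WARS2, with it (2.70%, against 4.52%). The share of all genes with an OCT4 peak was thus also far lower with doxycycline. H3K9me3 peaks were present within 1000 bp of no member in both libraries of either condition, against 2.88% of genes without and 2.58% with doxycycline, and 0 members had one in parental cells, against 2.4%. In treated replicate 2 alone a peak lay there at AARS2.

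YY1 enrichment was uneven among the members and was mostly higher where the motif shown above was present. The highest mean fold enrichment over the 4 YY1 libraries was at FARSA (125 ± 9.78, SD over libraries) and NARS1 (115 ± 2.60). High values were also measured at LARS2 (92.9 ± 10.6), YARS2 (68.2 ± 10.0) and KARS1 (65.7 ± 16.1). All of these have a YY1 motif. Among the 33 members with a peak in all 4 libraries, the 10 with the motif had a median fold of 66.9 and the 23 without it 10.0, with EARS2 (52.0 ± 6.28) the highest without it. The motif was searched only from 250 bases before to 50 bases after the start site, whereas peaks were read within 1000 bp. At EARS2 the summits, at -415 to -382, lay outside the searched window. Over all tested genes the medians were 46.5 for 1331 genes with the motif and 9.003 for 7713 without, so the same division was seen in the whole list. At LARS2 the 4 summits lay 14 to 26 bases after the start site and the motif began at 12, and at YARS2 they lay at 22 to 46 with the motif at 21. At FARS2 they lay near the motif in replicate 2 and at -820 and -790 in replicate 1. TARS2 had the lowest enrichment of the 10, at 11.1 ± 2.88. Of the 10, WARS2 was called lower and TARS2 higher. Of all tested genes with the motif, 8.31% fell.

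The genes with the largest falls differed in the chromatin around them. At AARS2, on chromosome 6, H3K9me3 peaks appeared upstream in both treated libraries, from -4838 to -2188 and from -16981 to -13742 bp in replicate 1 (fold enrichment 9.63 and 12.04) and from -5994 to -1503 and from -18520 to -12979 bp in replicate 2 (9.68 and 12.3). In the untreated libraries the nearest H3K9me3 peak to the AARS2 start lay 42776 and 58613 bp away, and in parental NCCITs 43127 bp away. An SVA from the list of de-repressed copies that the study supplies lies 3722 bp upstream of the start, inside the nearer region, and it was the only such SVA within 5000 bp of any member.

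OCT4 peaks were called without doxycycline at the promoter of AARS2 (fold enrichment 7.07), at -4059 to -3707 bp (4.99) and at -15702 to -14640 bp (9.98), and with doxycycline the nearest OCT4 peak lay 36955 bp away. Of the 353 bases of the OCT4 peak at -4059 to -3707 bp, 338 lie inside the listed SVA, a repeat with many similar copies, so reads there can be hard to place. YY1 at the promoter was kept in all libraries, with folds of 12.5 and 25.7 without and 20.5 and 30.7 with doxycycline. YY1 at the nearer site was 4.80 and 13.3 without and 4.57 and 4.44 with doxycycline. At the farther site YY1 was 7.65 and 6.17 without doxycycline, and with it 5.07 in replicate 2 and no peak in replicate 1. With 2 libraries or 1 per condition these differences were not tested.

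At MARS2, on chromosome 2, H3K9me3 peaks lay upstream in all 5 libraries, with the nearest at 2727 and 2416 bp without doxycycline, 2551 and 2275 bp with it, and 4126 bp in parental cells. The nearest region with H3K9me3 in the treated libraries alone was 84204 bp away, and the nearest listed SVA 3576566 bp away. A YY1 peak upstream, from -12816 to -11161 bp in untreated replicate 1 (fold enrichment 57.2 and 50.4 without, 65.7 and 50.4 with doxycycline), and an OCT4 peak in the same place (5.40 without, 4.99 with) were present in both conditions. The peak lists thus differed between conditions near AARS2, and near MARS2 the same kinds of peak were called in both, while both genes fell. The missing OCT4 peaks were not particular to AARS2. Over all tested genes the share with an OCT4 peak within 1000 bp was 39.4% without and 4.52% with doxycycline. At EARS2, which was not called, the promoter OCT4 peak (5.40 without) was also absent with doxycycline, where the nearest lay 83519 bp away.

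Over all members, 6 had a region with H3K9me3 in both treated libraries and in neither untreated library within 50000 bp of the start site (16.2%, against 10.4% of tested genes). These were AARS2, YARS1, CARS2, EARS2, and HARS1 and HARS2, which share 1 region. AARS2 and YARS1 fell, and the others were not called. Over all tested genes 8.48% fell. The share that fell among tested genes near such a region was not computed, so these falls cannot be set against it. At YARS1 the region lay inside the gene, 8837 bp after the start, with low enrichment (4.13 and 2.31), beside a broader peak that was at 20.7 and 6.34 with doxycycline and was also called in 1 untreated library (4.87) and in parental cells (3.85). EARS2, with a listed SVA at 25434 bp and such a region at 40242 bp, had a log2 fold change of -0.05 (95% interval -0.18 to 0.08). A listed SVA lay within 50000 bp of 2 members (5.41%, against 3.8%).

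**Figure D4:**
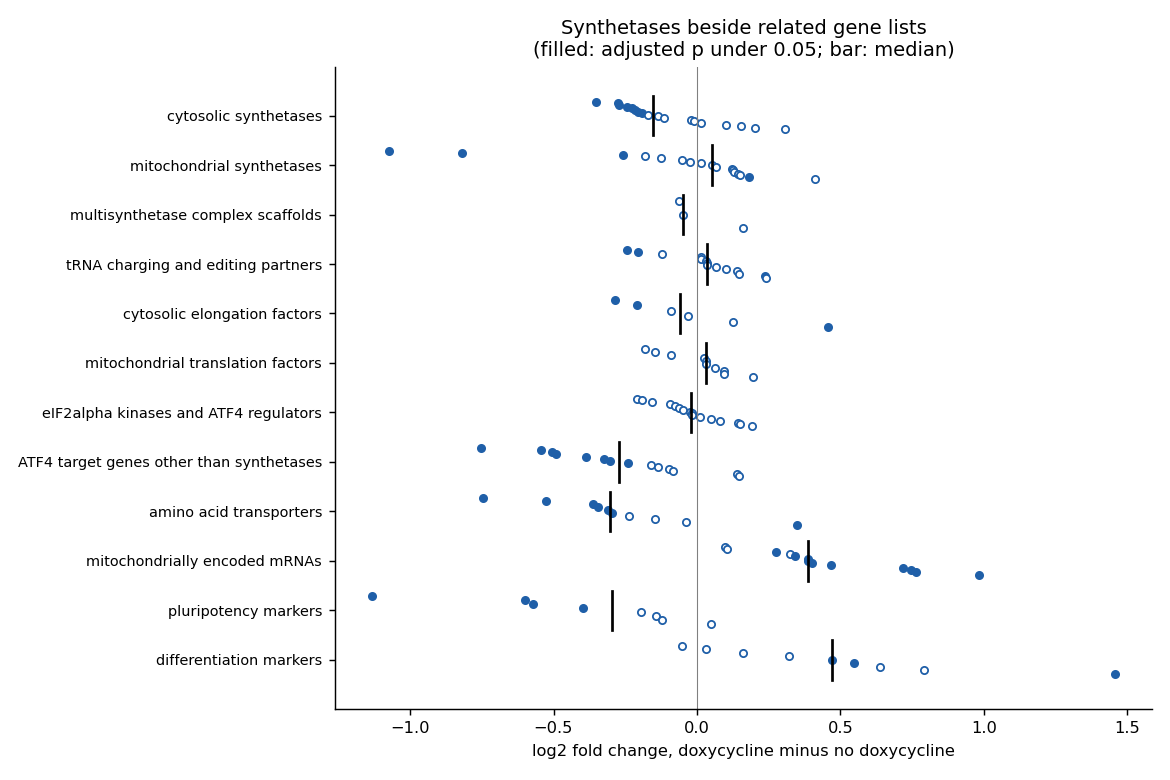
Log2 fold change of each tested gene in the synthetase classes and in related lists, doxycycline minus no doxycycline, with filled points for an adjusted p under 0.05 and a bar at the median of each list. The ATF4 targets (median -0.27) and amino acid transporters (-0.30) lie to the left with the cytosolic synthetases (-0.15), and the ATF4 regulators (-0.02) lie around 0.

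The synthetases were last read beside genes that work with them. The lists were chosen with earlier results of these data known, and their counts are descriptions. Of 14 ATF4 target genes other than synthetases, 8 fell and 0 rose by edgeR, against 8.48% and 8.97% of all tested genes, with a median log2 fold change of -0.27. In the upward direction 1 had an unadjusted p under 0.05 and DESeq2 called 0. ASNS, which makes asparagine, was at 297, 281 and 299 CPM without and 214, 212 and 198 CPM with doxycycline (-0.49, adjusted p = 0.000491 by edgeR). CHAC1, which degrades glutathione, was at 72.1, 55.2 and 59.3 CPM without and 47.9, 33.0 and 29.2 CPM with doxycycline (-0.75), DDIT4 was at -0.54 and NUPR1 at -0.51. The CHAC1 call was lost without treated replicate 2 (adjusted p = 0.0776 by edgeR), and NUPR1 was called in 8 of 13 alternatives. The DDIT4 call was lost in 7 of 13 alternatives, with an adjusted p of 0.106 in DESeq2.

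Of 10 amino acid transporters, 6 fell (60.0%, against 8.48% of all tested genes) and 1 rose (10.0%, near the 8.97% of all tested genes). SLC7A11, the cystine transporter, was at 218, 255 and 262 CPM without and 129, 146 and 164 CPM with doxycycline (-0.75, adjusted p = 0.00115 by edgeR). SLC6A9 was at -0.53 and SLC7A5 at -0.36, and SLC38A1 rose by 0.35, a call made in 6 of 13 alternatives. Of 16 genes for eIF2alpha kinases and ATF4 regulators none was called in edgeR's test, 2 had an unadjusted p under 0.05, and DESeq2 called 0. ATF4 itself was at 551, 497 and 530 CPM without and 550, 515 and 493 CPM with doxycycline (-0.02). ATF4 protein and its translation were not measured.

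Of 14 genes for tRNA charging and editing, 2 fell and 1 rose (14.3% and 7.14%), which is near the 8.48% and 8.97% of all tested genes. XPOT, the tRNA exporter, was at 433, 449 and 455 CPM without and 362, 377 and 391 CPM with doxycycline (-0.24). QRSL1, the catalytic subunit of the amidotransferase that completes mitochondrial glutaminyl-tRNA, was at -0.20, and DTD1, a proofreading deacylase, at 0.24. Of 6 cytosolic elongation factors, EEF2 (-0.28) and EEF1A1 (-0.21) fell and EEF1A2 rose (0.46). These calls lay near the threshold for most of the genes named here. QRSL1 was called in 5 of 13 alternatives (adjusted p up to 0.192 by edgeR) and lost its call without any library other than untreated replicate 1. EEF1A1 and EEF1A2 were called in 7 of 13 each, and both lost the call without untreated replicate 2, untreated replicate 3, treated replicate 1 or treated replicate 3, as EEF1A2 did without treated replicate 2. XPOT and DTD1 were called in 9 of 13 each, and both lost the call without untreated replicate 2 or 3 or treated replicate 1 or 2. EEF2 was called in all 13. None of the 10 mitochondrial translation factors was called by edgeR (median 0.03), 3 had an unadjusted p under 0.05, and DESeq2 called 1, higher.

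The mRNAs encoded by the mitochondrial genome, which the mitochondrial synthetases serve, moved upward. Of the 13, 10 rose (76.9%, against 8.97% of all tested genes), with a median log2 fold change of 0.39. MT-CYB was at 1436, 1836 and 1633 CPM without and 2985, 3633 and 3083 CPM with doxycycline (0.98, adjusted p = 0.000287 by edgeR). MT-ATP6 rose by 0.76, MT-ATP8 by 0.75 and MT-ND3 by 0.72. The summed CPM of the 13 mRNAs was 35403 to 44114 without and 46538 to 54212 with doxycycline. The part of these shifts in the fall of MARS2 and AARS2 was not tested.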

How the data were processed

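The authors trimmed reads with TrimGalore! and deposited the estimated counts and TPM that kallisto gave per transcript. Their peak lists, on hg19, give fold enrichment as a ratio and p- and q-values as −log10 values, as deposited by the authors. Estimated counts were summed per gene over the 166506 of 188753 transcripts found in GENCODE v44lift37, rounded, and tested by the quasi-likelihood method of edgeR (version 4.0.16, R 4.3.3) after its default expression filter and TMM scaling, at a Benjamini-Hochberg adjusted p of 0.05. DESeq2 1.42.0 served as an alternative. TPM were summed as deposited. On simulated counts of 16371 genes, edgeR recovered 63% of changes of 0.5 and 86% of changes of 1 (log2), and 10.2% of its calls were false. Only 200 genes were changed there, against 1469 called higher and 1389 called lower in the data, so this false share does not carry over. Changes as small as those of the called cytosolic genes (-0.35 to -0.19) were not simulated.

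A member was named in full when it was among the 8 called genes with the largest fold change of its class, or was GARS1, KARS1, EPRS1 or QARS1. From each related list, up to 4 called genes were named by the same measure. FARSA, HARS1 and HARS2 were added after their values were seen, as was the choice of which promoter windows to print. The members and lists were chosen with earlier results of these data known. The regions with H3K9me3 in treated libraries alone, and the comparison of YY1 enrichment by motif, were chosen after the peaks were seen.

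Libraries of the same condition differed by 7.29 to 14.6 times the variance of counting alone (chi-square per gene). Peak lists give no depth. HiChIP contacts (6 samples) were left out because 12 columns of per-sample values and 4 of coverage could not be matched to labels. Genes sharing reads with close copies or overlapping genes are uncertain. Some members' own values and some sequences are not reported here, though the counts include those members.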

Additional observations from a re-analysis of the deposited data

How the results depend on the processing

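Of the 481 values that the 37 synthetases took over 13 alternatives, 408 kept their direction and their side of the threshold, 44 lost a call, 12 gained one and 17 changed sign, all 17 in genes that were not called. WARS1, TARS1, MARS2 and AARS2 were called in every alternative. Of 325 values of the 25 named genes of related lists, 270 kept their call, 55 lost it and 0 changed sign. The cause of these differences was not tested.

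The number of cytosolic genes called lower was 4 with length-scaled counts and 2 to 6 when 1 library was left out. The number called higher was 1 (FARSA) with DESeq2, without a low-count filter, with at least 10 counts in every library and with protein-coding transcripts only, and 0 to 1 when 1 library was left out. The number of mitochondrial genes called higher was 2 with DESeq2, without a filter and with at least 10 counts, 0 with length-scaled counts, and 0 to 2 when 1 library was left out. The median log2 fold change of the cytosolic class lay between -0.178 and -0.123 over the alternatives. That of the mitochondrial class was -0.012 with protein-coding transcripts only and 0.043 to 0.075 in the other alternatives. Over all genes, 939 were called higher with length-scaled counts. Leaving out 1 library gave 683 to 1685 higher and 713 to 1574 lower.

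Replicate numbers were not used as pairs in the fit reported here. Deviations of same-numbered libraries correlated at 0.1282, 0.0799 and -9e-04. Untreated replicates 1 and 2 each correlated best with the treated library of the same number, and untreated replicate 3 with treated replicate 2. Such weak correlations do not settle whether the samples were paired. With a replicate block, 1 cytosolic gene and 2 mitochondrial genes were called higher.

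Fold changes (log2) that changed sign were 0.016 for QARS1, 0.074 for EARS2 and 0.0055 for VARS2 with length-scaled counts, and 0.015 for SARS1, -0.056 for LARS2 and -0.030 for YARS2 with protein-coding transcripts only. Leaving out 1 library gave -0.056 to 0.022 for QARS1, -0.013 to 0.037 for AARS1, -0.13 to 0.42 for HARS1, -0.045 to 0.025 for SARS1, -0.19 to 0.27 for VARS2 and -0.024 to 0.069 for YARS2.

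With a window of 5000 bp, H3K9me3 peaks were present at 5 of 37 members with doxycycline, 3 without and 3 in parental cells. The shares of all tested genes were 13.5%, 15.3% and 14.7%. CARS1 lay at the edge of this window, with the nearest peak at 4789 and 5049 bp without and 4925 and 4786 bp with doxycycline. OCT4 peaks with doxycycline were at 2 members with 5000 bp (against 11.6% of tested genes) and at 0 with 500 bp (against 3.28%). With a −log10 q of at least 5, OCT4 peaks without doxycycline were at 12 members, against 24.0% of tested genes. The depth of untreated replicate 1 and the 3 libraries per group limit what small changes could be seen.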
